A study of Homo sapiens with 16 samples.

Results

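NOTCH1 and MYC pathway genes are described here in 2 cell lines of T-ALL, an acute lymphoblastic leukemia of the T lineage, after knock-down of USP7, a deubiquitylating enzyme. The genes were taken by their symbols from a table of RNA-seq read counts: the receptors NOTCH1 and NOTCH3, their nuclear partner RBPJ, the ubiquitin ligase subunit FBXW7, the NOTCH-responsive genes HES1, HES4, DTX1 and NRARP, and the transcription factors MYC and MAX. All 10 were found among the 57820 genes of the table, and all 10 passed the filter on low counts in each fit. Jurkat and HSB-2 are established T-ALL lines with active TAL1, and each gave 4 groups of 2 libraries. Wild-type cells were not transduced. Scrambled cells carried a control construct, which the labels call a scrambled siRNA. The other groups carried USP7 shRNA-4057 or USP7 shRNA-4058. Per the methods, USP7 hairpins were delivered by lentivirus and transduced cells were sorted for GFP or selected with puromycin, so a group is a selected cell population and the labels name no clone. No source used here says whether the 2 libraries of a group came from separate cultures, so p-values measure only the spread between these libraries. A fold change in bulk RNA cannot tell a change in each cell from a change in the share of cells.

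Signaling through NOTCH starts when a ligand on a neighboring cell pulls on the receptor. The receptor is then cut by ADAM10 and by gamma-secretase, and its intracellular domain moves to the nucleus, where it joins RBPJ and a MAML protein to switch genes on. HES1 and HES4 encode repressors, DTX1 encodes a ubiquitin ligase and NRARP encodes a small protein that restrains the NOTCH complex. MYC, which binds DNA as a dimer with MAX and drives ribosome production and growth, is a known direct NOTCH1 target in T-ALL. FBXW7 marks the NOTCH1 intracellular domain and MYC protein for destruction, and USP7 acts on proteins too, so read counts report only the RNA level of this pathway.

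RBPJ recognizes the core TGGGAA, and promoter sequence was available for 8 of the 10 genes in 16 windows, each covering the 250 bases before an annotated RefSeq start (GRCh38.p14). The windows of HES1 and HES4 are shown because both hold this core while the genes moved in opposite directions against scrambled in Jurkat. Against wild-type the log2 change of HES4 with both hairpins pooled was -0.05 ± 0.23 (SE), and with shRNA-4058 alone it was 0.23. Cores found on either strand are in capitals, and the sequences read 5′ to 3′ toward the start of the gene. HES1 is on the plus strand (chr3:194135898-194136147) and HES4 on the minus strand (chr1:1000098-1000347).
HES1: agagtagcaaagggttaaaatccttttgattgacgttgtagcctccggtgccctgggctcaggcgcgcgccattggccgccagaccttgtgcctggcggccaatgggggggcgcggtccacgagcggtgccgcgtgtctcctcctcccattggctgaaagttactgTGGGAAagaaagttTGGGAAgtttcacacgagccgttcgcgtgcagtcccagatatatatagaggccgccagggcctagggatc
HES4: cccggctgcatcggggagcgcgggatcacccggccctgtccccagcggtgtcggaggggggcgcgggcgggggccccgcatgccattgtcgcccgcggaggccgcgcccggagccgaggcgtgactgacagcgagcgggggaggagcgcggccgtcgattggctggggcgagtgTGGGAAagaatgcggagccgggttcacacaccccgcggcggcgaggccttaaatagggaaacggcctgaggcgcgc
In HES1 the cores began 84 and 70 bases before the start, and in HES4 the only core began 76 bases before it. One of the 5 RBPJ windows also held the core, and no window of NOTCH1, NOTCH3, FBXW7, NRARP or MAX did. In total the core was in 3 of the 16 windows, and in 20.8% of all 35116 windows of this length. The MYC and MAX E-box CACGTG was in none of the 16 windows and in 6.34% of all windows. The E-protein E-box CANNTG, which overlaps CACGTG by its letters, was in 4 of the 16 and in 61.8% of all windows. A match describes the letters and not binding.

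USP7 was lowered in both lines. In Jurkat its level in normalized CPM (read counts scaled by library size with TMM factors) was 384 and 387 in scrambled, 140.0 and 145 in shRNA-4057 and 244 and 242 in shRNA-4058 cells, which left 37.0% and 63.0% of the scrambled level. In HSB-2 it was 227 and 220.1 in scrambled, 144 and 149 in shRNA-4057 and 162 and 156 in shRNA-4058 cells, which left 65.5% and 71.0%. Libraries held from 76.6 M to 235.5 M counts (M, mega). The Jurkat scrambled libraries had TMM factors of 0.953 and 0.925 against 1.04 to 1.15 in the other 6 Jurkat libraries. T lineage markers were present in both lines, with a summed level of 1740 to 2970 CPM over 6 genes (CD3D, CD3E, CD2, CD7, LCK and TAL1). TAL1, which is counted in this set although it is the oncogene active in these lines, was at 102 CPM or more in each group. CD2 was only 0.802 to 4.94 CPM in HSB-2. Of 9 markers of other cell types, 7 or more were under 1 CPM in each group and HBB was at 0. The exceptions were CD79A, a B lineage gene at 21.5 to 62.7 CPM in Jurkat, and COL1A1, a collagen gene at 4.66 to 11.2 CPM in both lines.

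The untreated lines differed in the levels of these genes. All 10 were called between wild-type Jurkat and wild-type HSB-2 cells, where called means an adjusted p under 0.05 in edgeR's quasi-likelihood test, against 68.1% of all genes tested. Of the 10, 4 were higher in Jurkat and 6 were lower, beside 34.6% and 33.5% of all genes. NOTCH3, HES4 and DTX1 belonged almost wholly to Jurkat. NOTCH3 was at 110.9 and 124 CPM in wild-type Jurkat and at 0.215 and 0.221 CPM in wild-type HSB-2 cells (log2 difference 9.07 ± 0.11, SE). DTX1 differed by 7.51 ± 0.13 and HES4 by 7.01 ± 0.14 in the same direction. HES1 and NRARP had the opposite pattern, with 3.16 and 3.38 against 35.7 and 36.7 CPM for HES1 (log2 difference -3.47 ± 0.07) and -2.33 ± 0.13 for NRARP. MYC was 2.44 times lower in Jurkat (adjusted p = 7.3e-19). The levels of NOTCH1, FBXW7, RBPJ and MAX were closer, with log2 differences of -0.33, -0.31, 0.38 and -0.15. With scrambled cells in place of wild-type cells NOTCH1 was the higher in Jurkat (0.17, adjusted p = 0.0016), and RBPJ (0.01) and MAX (0.04) were no longer called.

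**Figure D1:**
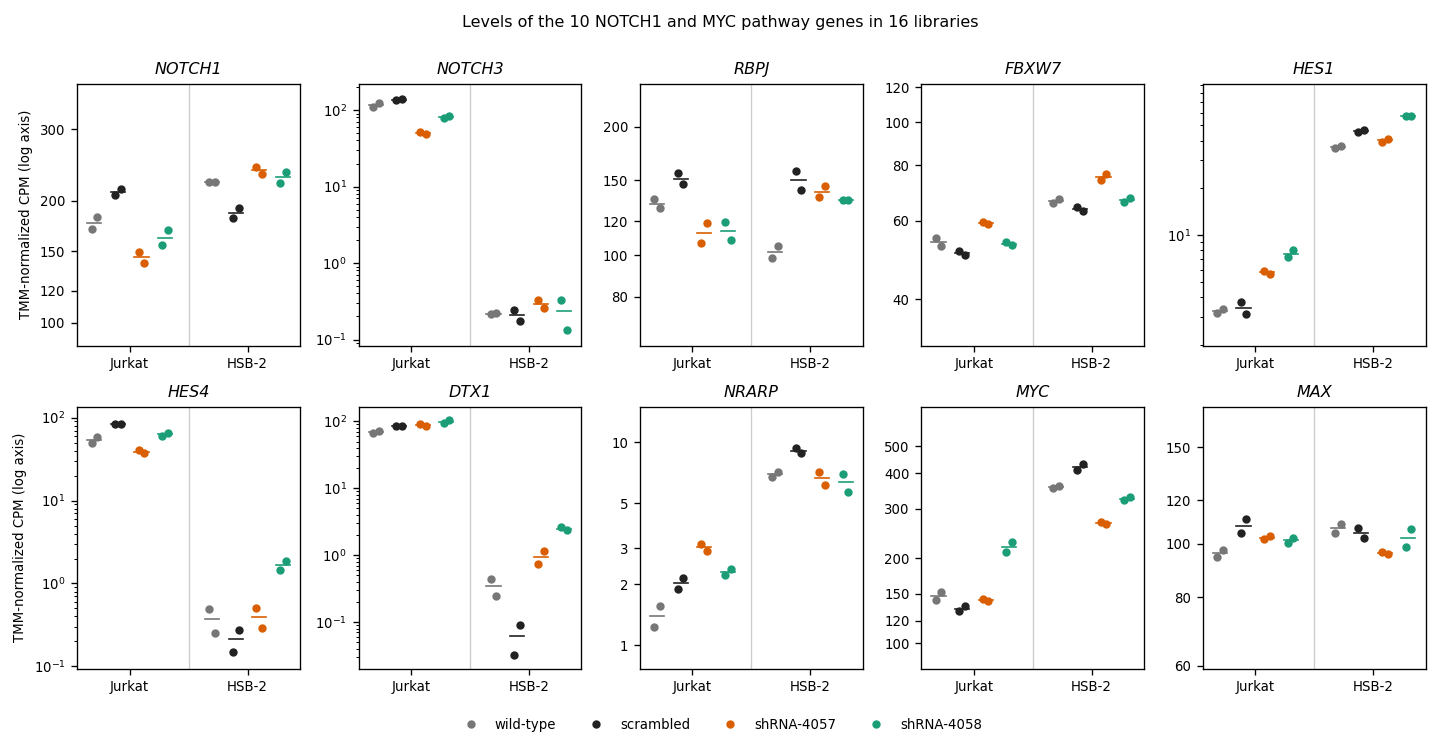
Levels of the 10 genes (vertical log axis, TMM-normalized CPM) in each of 16 libraries, with Jurkat on the left and HSB-2 on the right of each panel. Points are libraries, short lines are group means, and color gives the group. NOTCH3, HES4 and DTX1 are above 30 CPM in Jurkat and under 3 CPM in HSB-2, and HES1 and NRARP are higher in HSB-2.

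Per kilobase of merged exons (FPKM), HES4 was the most abundant of these transcripts in wild-type Jurkat cells at 48.2 ± 4.97 (SD, n = 2). MYC followed at 24.1 ± 1.07. The next 4 were DTX1 at 15.9, MAX at 15.4, NOTCH1 at 14.1 and NOTCH3 at 12.5 FPKM. Within them the intervals of 1 SD overlapped between DTX1 and MAX and between NOTCH1 and NOTCH3, so these neighbors in the order did not differ beyond their spread. RBPJ (8.63), FBXW7 (4.76), HES1 (1.59) and NRARP (0.526) ended the order. In wild-type HSB-2 cells MYC led at 58.8 ± 0.68 FPKM. NOTCH1 (17.7), HES1 (17.6) and MAX (17.1) came next and overlapped as neighbors. RBPJ was at 6.65, FBXW7 at 5.90, NRARP at 2.63, HES4 at 0.332, DTX1 at 0.0784 and NOTCH3 at 0.0232 FPKM. The order depends on the transcript model: with the longest transcript as the length, RBPJ in Jurkat would be at 22.9 FPKM, above NOTCH1 at 17.9.

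**Figure D2:**
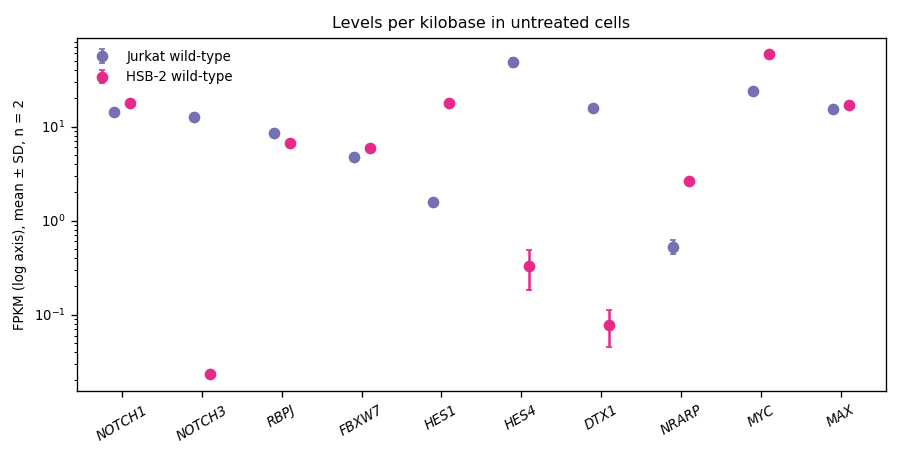
Mean FPKM ± SD (vertical log axis, n = 2 libraries) of the 10 genes in wild-type Jurkat and wild-type HSB-2 cells. HES4 leads in Jurkat at 48.2 and MYC in HSB-2 at 58.8, and NOTCH3 and DTX1 lie under 0.1 FPKM in HSB-2.

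The main question was how these genes moved with USP7 shRNA in each line. In Jurkat, NOTCH1, NOTCH3, RBPJ and HES4 fell and HES1 rose. The pooled fits took the 4 shRNA libraries of a line as 1 group, although 2 came from each hairpin and they are not 4 independent samples. Their error mixes the difference between hairpins with the spread between replicates. With both hairpins pooled (4 libraries) against scrambled (2 libraries), 5 of the 10 genes were called, 1 higher and 4 lower, beside 28.0% of all 21288 genes tested, 12.4% higher and 15.7% lower. These counts rest on the 2 scrambled libraries: without scrambled replicate 1 only HES1 was called, and without scrambled replicate 2 the count was 0. In HSB-2 5 of the 10 were called too: NOTCH1, DTX1 and HES4 rose and MYC and NRARP fell, beside 38.1% of all 21113 genes, 20.3% higher and 17.8% lower. Without either of the HSB-2 scrambled libraries 3 of the 5 were called, namely NOTCH1, DTX1 and MYC. Beside these results, the T lineage markers moved too. Of 6, 5 fell in Jurkat and all 6 rose in HSB-2, with medians of -0.40 and 0.65 on the log2 scale. Scrambled also differed from wild-type: 5 of the 6 were called in Jurkat, 4 higher and 1 lower (median 0.175), beside 25.9% of all genes. The lower gene was TAL1, with a mean of 290 CPM in scrambled and 369 in wild-type. In HSB-2 all 6 were lower in scrambled (median -0.254), beside 34.1%. Their summed level in Jurkat was 2090 CPM in wild-type, 2300 in scrambled and 1790 and 1740 with the hairpins. In HSB-2 it was 2350, 2060, 2650 and 2970 CPM in the same order. The summed level of the 9 markers of other cell types in Jurkat was 68.6 CPM in scrambled and 43.7 CPM in wild-type. It was 33.2 and 31.7 CPM in shRNA-4057 and shRNA-4058 cells. In HSB-2 it lay between 5.33 and 9.18 CPM. CD79A made up most of the Jurkat sum, with 62.7 CPM in scrambled, 35.5 in wild-type and 21.5 and 22.4 with the hairpins. The part of these differences in the results was not tested.

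NOTCH1 (ENSG00000148400.9, chromosome 9 from 139388885 to 139440500, minus strand, GRCh37) encodes the receptor that is activated by mutation in many T-ALLs. In Jurkat its level was 170.2 and 182 CPM in wild-type, 207 and 213 in scrambled, 149.5 and 141 in shRNA-4057 and 156 and 169 in shRNA-4058 libraries. All 4 shRNA libraries were below all 4 control libraries. The pooled log2 change was -0.43 ± 0.08 (SE, adjusted p = 0.0069). Against wild-type cells it was -0.17 ± 0.08 (adjusted p = 0.23), and with a GC and length offset it was -0.36 (adjusted p = 0.064), so the pooled call depends on the control and on the scaling. In HSB-2 the levels were 222 and 222 CPM in wild-type, 181 and 191 in scrambled, 243 and 232 in shRNA-4057 and 221 and 235 in shRNA-4058 libraries. The shRNA libraries were above scrambled but overlapped wild-type. The rise of 0.33 ± 0.06 against scrambled (adjusted p = 0.0022) became 0.06 ± 0.05 against wild-type (adjusted p = 0.40) and 0.03 ± 0.09 with the GC and length offset (adjusted p = 0.83).

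NOTCH3 (ENSG00000074181.4, chromosome 19 from 15269849 to 15311806, minus strand) encodes a second receptor of the family. In Jurkat it was at 110.9 and 124 CPM in wild-type, 134 and 138 in scrambled, 51.0 and 49.0 in shRNA-4057 and 79.6 and 84.5 in shRNA-4058 libraries. The shRNA libraries were below both controls without overlap, and those with shRNA-4057 were the lowest. The pooled change was -1.02 ± 0.22 (adjusted p = 0.014). It was -0.80 ± 0.23 against wild-type (adjusted p = 0.071). In HSB-2 the receptor was at 0.133 to 0.332 CPM in the 8 libraries, from 9 to 69 counts, and its change of 0.37 ± 0.39 was not called.

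RBPJ (ENSG00000168214.16, chromosome 4 from 26165077 to 26436753, plus strand), the DNA-binding partner of all NOTCH receptors, has near-identical pseudogene copies in the annotation, so its counts are uncertain. In Jurkat it was at 129 to 136 CPM in wild-type, 147 to 156 in scrambled and 107 to 120 in the shRNA libraries. The change was -0.39 ± 0.07 against scrambled (adjusted p = 0.0080) and -0.19 ± 0.07 against wild-type (adjusted p = 0.15). In HSB-2 the control decided the direction. Wild-type libraries were at 98.4 and 105 CPM, and the scrambled libraries at 158 and 142 CPM and the shRNA libraries at 135 to 145 CPM were all higher. The change was therefore -0.12 ± 0.06 against scrambled (adjusted p = 0.16) and 0.43 ± 0.06 against wild-type (adjusted p = 0.0014).

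FBXW7 (ENSG00000109670.9, chromosome 4 from 153241696 to 153457244, minus strand) shares exonic sequence with an antisense RNA. It had small changes that were not called in the pooled fits, 0.17 ± 0.07 in Jurkat and 0.16 ± 0.07 in HSB-2. In the fit of all 16 libraries it was higher than scrambled with shRNA-4057 in Jurkat (0.22, adjusted p = 7.7e-05) and in HSB-2 (0.24, adjusted p = 3.5e-05) and was not called with shRNA-4058. With the hairpins as separate groups their mean change was called in both lines (0.15, adjusted p = 0.0015 in Jurkat, and 0.15, adjusted p = 0.00088 in HSB-2). Its level lay between 50.3 and 59.6 CPM in Jurkat and between 63.3 and 76.4 CPM in HSB-2. The highest libraries of each line were those with shRNA-4057.

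HES1 (ENSG00000114315.3, chromosome 3 from 193853937 to 193856521, plus strand), the classical NOTCH-induced repressor, rose in Jurkat while NOTCH1 fell. Its level was 3.16 and 3.38 CPM in wild-type, 3.71 and 3.15 in scrambled, 5.92 and 5.61 in shRNA-4057 and 7.19 and 7.97 in shRNA-4058 libraries. All shRNA libraries were above all controls. The change was 0.98 ± 0.18 against scrambled (adjusted p = 0.0067) and 1.06 ± 0.17 against wild-type (adjusted p = 0.015). In HSB-2 the levels were 35.7 and 36.7 CPM in wild-type, 45.1 and 46.9 in scrambled, 39.4 and 41.1 in shRNA-4057 and 57.6 and 57.3 in shRNA-4058 libraries. The hairpins lay on either side of scrambled, and the pooled change of 0.09 ± 0.16 was not called.

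HES4 (ENSG00000188290.6, chromosome 1 from 934342 to 935552, minus strand), the repressor with 1 RBPJ core in the window above, moved against HES1 in Jurkat with scrambled as the control. It was at 49.9 and 57.8 CPM in wild-type, 84.4 and 84.4 in scrambled, 40.5 and 37.3 in shRNA-4057 and 60.7 and 65.3 in shRNA-4058 libraries. Scrambled was the highest group, and wild-type lay between the hairpins. The change of -0.70 ± 0.22 against scrambled (adjusted p = 0.049) was only just called, and it was -0.05 ± 0.23 against wild-type (adjusted p = 0.91). Without either shRNA-4057 library the call was lost. In HSB-2 it was at 0.491 and 0.252 CPM in wild-type, 0.150 and 0.273 in scrambled, 0.502 and 0.290 in shRNA-4057 and 1.45 and 1.85 in shRNA-4058 libraries. Only shRNA-4058 stood clear of both controls. The pooled change was 2.27 ± 0.72 against scrambled (adjusted p = 0.034) and 1.39 ± 0.70 against wild-type (adjusted p = 0.18), and the call was lost without either scrambled library or without shRNA-4058 replicate 1.

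DTX1 (ENSG00000135144.3, chromosome 12 from 113494535 to 113535833, plus strand) rose from a very low level in HSB-2. Its level was 0.443 and 0.242 CPM in wild-type, 0.032 and 0.091 in scrambled, 0.735 and 1.17 in shRNA-4057 and 2.62 and 2.36 in shRNA-4058 libraries. The scrambled values stand for 6 and 16 counts. All 4 shRNA libraries were above all 4 controls, and scrambled was below wild-type. The change was 4.81 ± 0.68 against scrambled (adjusted p = 0.00067) and 2.27 ± 0.54 against wild-type (adjusted p = 0.018), a fold that depends on the control although the call does not. Even so, the highest HSB-2 library stayed far below the 68.1 to 103 CPM of the Jurkat libraries. In Jurkat the change of 0.14 ± 0.08 was not called, and it was 0.46 ± 0.09 against wild-type (adjusted p = 0.024).

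NRARP (ENSG00000198435.2, chromosome 9 from 140194083 to 140196723, minus strand) was a low transcript in both lines. In Jurkat it was at 1.22 and 1.56 CPM in wild-type, 1.89 and 2.15 in scrambled and 2.22 to 3.15 in the shRNA libraries. The change was 0.42 ± 0.19 against scrambled (adjusted p = 0.13) and 0.97 ± 0.20 against wild-type (adjusted p = 0.031). In HSB-2 it was at 6.72 and 7.16 CPM in wild-type, 9.34 and 8.81 in scrambled and 5.69 to 7.14 in the shRNA libraries. The shRNA libraries were below scrambled but overlapped wild-type, with changes of -0.48 ± 0.11 (adjusted p = 0.0096) and -0.10 ± 0.12 (adjusted p = 0.59).

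MYC (ENSG00000136997.10, chromosome 8 from 128747680 to 128755197, plus strand) fell in HSB-2. It was at 356 and 362 CPM in wild-type, 412 and 430.3 in scrambled, 270.0 and 264 in shRNA-4057 and 321 and 329 in shRNA-4058 libraries. All 4 shRNA libraries were below all 4 controls. The change was -0.50 ± 0.09 against scrambled (adjusted p = 0.0026) and -0.28 ± 0.09 against wild-type (adjusted p = 0.053). In Jurkat it was at 143 and 152 CPM in wild-type, 130.0 and 135 in scrambled, 144 and 141 in shRNA-4057 and 211 and 228 in shRNA-4058 libraries. Only shRNA-4058 stood apart from the controls. The pooled change of 0.47 ± 0.21 was not called (adjusted p = 0.12). An antisense RNA shares part of the MYC exons, and the strand setting of the counts was not stated.

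MAX (ENSG00000125952.14, chromosome 14 from 65472892 to 65569413, minus strand), the dimer partner of MYC, varied little. It lay between 94.8 and 111 CPM in Jurkat and between 95.8 and 109 CPM in HSB-2, with pooled changes of -0.06 ± 0.06 and -0.07 ± 0.06 that were not called. In the fit of all 16 libraries it was lower with shRNA-4057 in HSB-2 (-0.12, adjusted p = 0.025), and the GC and length offset made the pooled HSB-2 change -0.24 (adjusted p = 0.0090). Its exons overlap FNTB and other genes on the opposite strand, which makes small differences uncertain.

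Each hairpin was then set against scrambled in a fit of all 16 libraries, in which only the replicates set the error. With shRNA-4057 the calls numbered 8 of 10 in Jurkat, beside 50.0% of all 23063 genes, and 8 of 10 in HSB-2, beside 43.6%. With shRNA-4058 they numbered 7 of 10 in Jurkat, beside 46.5%, and 7 of 10 in HSB-2, beside 52.8%. Both hairpins share the scrambled libraries of their line, so their changes are not independent. In Jurkat the change of NOTCH1 was -0.53 ± 0.05 with shRNA-4057 and -0.37 ± 0.05 with shRNA-4058. The change of NOTCH3 was -1.44 ± 0.06 with shRNA-4057 and -0.73 ± 0.06 with shRNA-4058. RBPJ changed by -0.42 and -0.40, HES4 by -1.12 and -0.42 and HES1 by 0.75 and 1.14, in the same order. In HSB-2 the change of MYC was -0.66 ± 0.04 with shRNA-4057 and -0.37 ± 0.04 with shRNA-4058. The change of DTX1 was 3.98 ± 0.33 and 5.36 ± 0.25, and that of NRARP was -0.45 and -0.50. HES1 was lower with shRNA-4057 (-0.19, adjusted p = 0.0080) and higher with shRNA-4058 (0.32, adjusted p = 3.7e-05). In Jurkat MYC changed by 0.11 ± 0.04 with shRNA-4057 (adjusted p = 0.034), a call that was lost in DESeq2, and by 0.73 ± 0.04 with shRNA-4058 (adjusted p = 5.6e-13). NOTCH1 in HSB-2 changed by 0.29 with shRNA-4058, and by -0.10 with the GC and length offset (adjusted p = 0.0089).

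**Figure D3:**
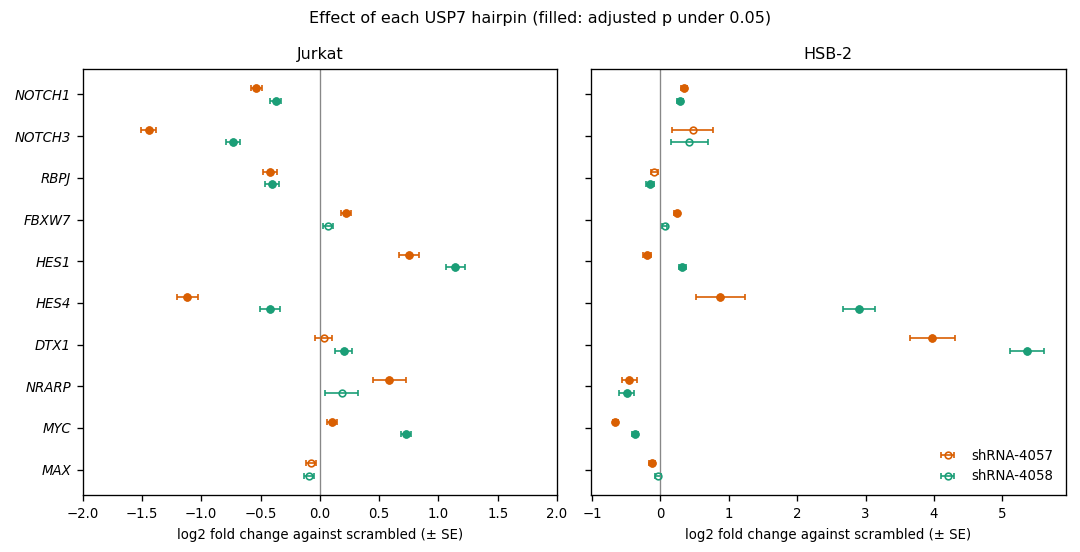
Log2 fold change ± SE of each gene against scrambled (horizontal axis) for shRNA-4057 and shRNA-4058, from the fit of 16 libraries with 2 per group. Filled points had an adjusted p under 0.05, and the panels have different horizontal scales. NOTCH1, NOTCH3, RBPJ and HES4 lie left of 0 in Jurkat, whereas in HSB-2 DTX1 lies far to the right and MYC and NRARP lie to the left with both hairpins.

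The hairpins were also compared directly. In Jurkat 7 of the 10 genes differed between shRNA-4057 and shRNA-4058, beside 33.9% of all genes, and in HSB-2 5 did, beside 24.8%. With shRNA-4057, which left less USP7 in both lines, NOTCH3 in Jurkat was lower by -0.71 ± 0.06 (adjusted p = 3.0e-09) and HES4 by -0.69 ± 0.09 than with shRNA-4058. MYC was lower with shRNA-4057 in both lines, by -0.62 ± 0.04 in Jurkat and -0.28 ± 0.04 in HSB-2, and so was HES1, by -0.39 ± 0.07 and -0.51 ± 0.06. In HSB-2 DTX1 was lower by -1.39 ± 0.16 and HES4 by -2.02 ± 0.25. FBXW7 was higher with shRNA-4057 in both lines, by 0.15 ± 0.04 and 0.17 ± 0.04.

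Scrambled cells differed from wild-type cells in most of these genes. In Jurkat 8 of the 10 were called, beside 25.9% of all genes, and in HSB-2 7 were, beside 34.1%. In Jurkat the largest of these changes were HES4 (0.65 ± 0.09), NRARP (0.55 ± 0.15), DTX1 (0.31 ± 0.07) and NOTCH1 (0.25 ± 0.05), all higher in scrambled. Without scrambled replicate 2 or wild-type replicate 1, 5 were called. In HSB-2, DTX1 (-2.63 ± 0.38), HES4 (-0.99 ± 0.30) and NOTCH1 (-0.25 ± 0.05) were lower in scrambled, and RBPJ (0.56 ± 0.06), NRARP (0.39 ± 0.10), HES1 (0.35 ± 0.06) and MYC (0.23 ± 0.04) were higher. The calls of HES4 and NRARP in HSB-2 were lost without scrambled replicate 1 or wild-type replicate 1.

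For this reason the shRNA libraries were also set against wild-type cells. Pooled, 3 of the 10 genes were called in Jurkat, beside 8.41% of all genes, and these were HES1, DTX1 and NRARP, each higher. In HSB-2 2 were called, beside 25.1%, and these were DTX1 and RBPJ, each higher. With single hairpins the counts against wild-type were 8 for shRNA-4057 and 8 for shRNA-4058 in Jurkat, beside 36.7% and 35.9% of all genes, and 6 and 5 in HSB-2, beside 31.7% and 44.0%. In Jurkat NOTCH1 was lower than wild-type with shRNA-4057 (-0.28 ± 0.05) and with shRNA-4058 (-0.12 ± 0.05, adjusted p = 0.046). NOTCH3 was lower by -1.23 ± 0.06 and -0.51 ± 0.06. MYC in HSB-2 was lower by -0.43 ± 0.04 and -0.14 ± 0.04 (adjusted p = 0.0046). MYC in Jurkat was at -0.05 ± 0.04 with shRNA-4057, which was not called, and higher by 0.58 ± 0.04 with shRNA-4058. HES4 in Jurkat was lower with shRNA-4057 (-0.47) and higher with shRNA-4058 (0.23, adjusted p = 0.041).

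**Figure D4:**
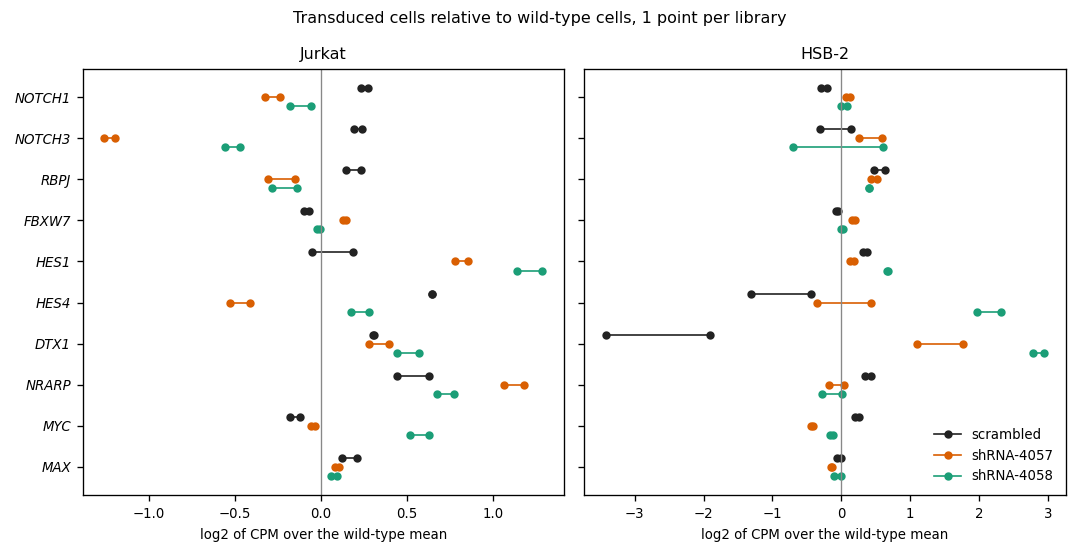
Log2 of each library's CPM over the mean of the wild-type libraries of its line (horizontal axis), for scrambled, shRNA-4057 and shRNA-4058, with 2 libraries per group joined by a line. The panels have different horizontal scales. In Jurkat NOTCH1 and NOTCH3 lie right of 0 in scrambled and left of 0 with both hairpins, and in HSB-2 DTX1 lies left of 0 in scrambled and right of 0 with both hairpins.

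The difference between the lines was tested itself, as an interaction term over 12 libraries with scrambled cells as the control. It was called for 8 of the 10 genes, beside 37.7% of all 22732 genes. Relative to Jurkat, the shRNA effect in HSB-2 was more positive by 0.78 ± 0.10 for NOTCH1 (adjusted p = 7.2e-05), 1.47 ± 0.46 for NOTCH3, 4.72 ± 0.66 for DTX1 and 3.02 ± 0.73 for HES4. The same difference was -0.95 ± 0.24 for MYC (adjusted p = 0.0080), -0.88 ± 0.22 for NRARP and -0.87 ± 0.25 for HES1. RBPJ differed by 0.29 ± 0.10, and FBXW7 (0.01 ± 0.11) and MAX (0.01 ± 0.08) were not called. Without Jurkat scrambled replicate 2 or HSB-2 scrambled replicate 2 the count was 5, as NOTCH3, RBPJ and HES1 were lost. With the GC and length offset the differences of NOTCH1 (0.40, adjusted p = 0.079) and NOTCH3 (1.05, adjusted p = 0.17) were not called. Matched by hairpin, 8 genes differed between the lines with shRNA-4057 and 8 with shRNA-4058, beside 46.7% and 55.6% of all genes. MYC differed by -0.76 ± 0.06 with shRNA-4057 and by -1.10 ± 0.06 with shRNA-4058. Knock-down depth was not matched: shRNA-4057 left 37.0% of USP7 in Jurkat and 65.5% in HSB-2. Scrambled lay on opposite sides of wild-type in Jurkat and HSB-2 for NOTCH1, HES4, DTX1 and MYC, but above it in both for NRARP and RBPJ. For MYC it was lower than wild-type in Jurkat (-0.15) and higher in HSB-2 (0.23). Against wild-type, pooled changes in Jurkat and HSB-2 were -0.17 and 0.06 for NOTCH1, -0.05 and 1.39 for HES4 and 0.46 and 2.27 for DTX1. Those of MYC were 0.33 and -0.28, and neither was called. The difference between the lines was not tested against wild-type.

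Genes that MYC is known to activate were examined next to MYC itself. The list held 30 genes of ribosome production, nucleotide and polyamine synthesis, protein folding, glycolysis and iron uptake. In HSB-2, where MYC fell, 23 of 30 were called in the pooled comparison, 1 higher and 22 lower, beside 38.1% of all genes called and 17.8% lower, and the list's median log2 change was -0.33 against -0.02 over all genes tested. The largest falls were in HSPE1, a mitochondrial chaperonin (-1.07 ± 0.09, mean of 23.1 CPM in scrambled, 18.4 CPM in wild-type and 11.4 and 10.6 CPM with the hairpins), POLR1B, a subunit of RNA polymerase I (-0.81 ± 0.07), and NME1, a nucleoside diphosphate kinase (-0.79 ± 0.07). The transferrin receptor TFRC was the only gene that rose (0.18 ± 0.05). Against wild-type 22 were called, 3 higher and 19 lower, beside 25.1% of all genes, with a median of -0.33, although MYC itself was not called there. Without scrambled replicate 2 the count against scrambled was 15.

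In Jurkat 9 of the 30 were called in the pooled comparison, 7 higher and 2 lower, a share close to the 28.0% of all genes called in that fit. The list's median was 0.16 against 0.02 over all genes. EIF4A1, a translation initiation helicase (0.87 ± 0.19), POLR1B (0.73 ± 0.17) and NOP16, a nucleolar protein (0.68 ± 0.10), rose most. EIF4A1 was at 20 CPM in wild-type, 14.3 in scrambled, 30.5 with shRNA-4057 and 21.1 with shRNA-4058, so shRNA-4058 lay close to wild-type. POLR1B was at 31.9 CPM in wild-type and 39.1 and 54.9 CPM with the hairpins. NOP16 was at 16.5 CPM in wild-type and 20.6 and 22.5 CPM with the hairpins. The glycolytic genes ENO1 (-0.85 ± 0.05) and HK2 (-0.46 ± 0.07) were the 2 that fell. Scrambled cells had the highest ENO1 level in Jurkat, with a mean of 5180 CPM against 3080 in wild-type and 2750 and 2920 CPM with the hairpins. HK2 was also highest in scrambled, at 300 CPM, and wild-type (211 CPM) lay between shRNA-4057 (203 CPM) and shRNA-4058 cells (226 CPM). Against wild-type 4 were called, all higher, beside 8.41% of all genes, and without either scrambled library 4 were. The hairpins differed here as MYC did. With shRNA-4058, 29 of 30 were called, 23 higher and 6 lower (median 0.38), beside 46.5% of all genes, and with shRNA-4057, 23 were called, 9 higher and 14 lower (median -0.04), beside 50.0%. Compared directly, 28 of 30 differed between the hairpins in Jurkat, 27 of them lower with shRNA-4057, beside 33.9% of all genes, with a median of -0.40. In HSB-2 11 differed, 7 higher and 4 lower, beside 24.8%, with a median of 0.02, although MYC was lower with shRNA-4057 there too. The control construct alone went with changes too: scrambled against wild-type, 20 of 30 were called in Jurkat, 15 higher and 5 lower (median 0.10), beside 25.9% of all genes, and 18 in HSB-2, 14 higher and 4 lower (median 0.09), beside 34.1%. The interaction between the lines was called for 20 of 30, beside 37.7% of all genes, of which 19 had the lower effect in HSB-2 (median -0.64 against -0.01 over all genes).

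**Figure D5:**
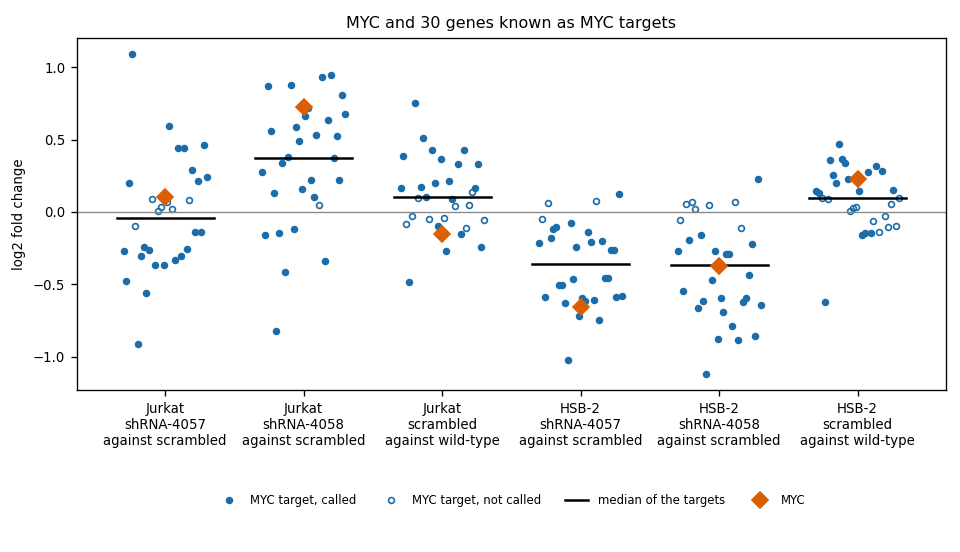
Log2 fold change (vertical axis) of MYC (diamonds) and of 30 genes known as MYC targets (circles, filled where the adjusted p was under 0.05) in 6 comparisons, each with 2 libraries per group. Horizontal bars are medians of the 30 genes. In HSB-2 the medians are -0.36 with both hairpins, and in Jurkat they are -0.04 with shRNA-4057 and 0.38 with shRNA-4058.

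Of 11 other genes of the MYC and MAX network, 6 were called in Jurkat, 1 higher and 5 lower, with a median of -0.25, beside 28.0% of all genes. MYCN, a paralog of MYC, fell by 0.87 ± 0.11 on the log2 scale from a mean of 21.0 CPM in scrambled to 10.2 and 12.3 CPM with the hairpins, against 14.8 CPM in wild-type. The MYC antagonist MXI1 fell (-0.62 ± 0.10), the MAX partner MGA rose (0.41 ± 0.07), and MLXIPL fell at a level under 0.2 CPM. In HSB-2 2 of 11 were called, beside 38.1% of all genes. MYCN rose there (1.30 ± 0.20), from 2.71 CPM in scrambled to 5.31 and 7.96 CPM (wild-type 4.25 CPM), and the antagonist MXD3 rose too (1.03 ± 0.10). MXD3 was at 20.4 CPM in scrambled, 32.1 in wild-type and 38 and 45.1 CPM with the hairpins. Of 9 cofactors and turnover factors of MYC, 4 were called in each line, beside 28.0% of all genes in Jurkat and 38.1% in HSB-2. The deubiquitylating enzyme USP28, which protects MYC protein from FBXW7, fell in Jurkat (-0.33 ± 0.08) and rose in HSB-2 (0.37 ± 0.10), and so did the kinase AURKA (-0.23 ± 0.06 and 0.36 ± 0.09). In HSB-2 wild-type lay above scrambled for both genes. AURKA was at 61.5 CPM in wild-type, 51.8 in scrambled, 59.8 with shRNA-4057 and 72.4 with shRNA-4058, so that only shRNA-4058 lay above wild-type. USP28 was at 31.7 CPM in wild-type, 28.6 in scrambled, 32.7 with shRNA-4057 and 40.7 with shRNA-4058. In Jurkat USP36 and TRRAP rose by 0.30 and 0.24, and in HSB-2 ZBTB17 rose by 0.20 and WDR5 fell by 0.24.

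Of 5 NOTCH ligands, 3 were called in HSB-2, all higher, beside 38.1% of all genes called and 20.3% higher. DLL1 rose by 1.51 ± 0.08 (adjusted p = 3.5e-06), from a mean of 23.2 CPM in scrambled to 62.3 and 69.9 CPM with the hairpins, against 46.9 CPM in wild-type. JAG1 (0.58 ± 0.18) and DLL3 (2.08 ± 0.43) rose at levels under 1.1 CPM. In Jurkat 1 of 5 was called, beside 28.0%, and this was JAG1, which fell (-0.73 ± 0.22). Scrambled was its highest group at 6.73 CPM, against 5.21 in wild-type, 3.12 with shRNA-4057 and 4.85 with shRNA-4058. Of 2 other receptors, NOTCH2 rose in HSB-2 (0.31 ± 0.10, from 155 CPM in scrambled to 207 and 214 CPM in the shRNA-4057 libraries and a mean of 172 CPM with shRNA-4058, wild-type 187 CPM), where wild-type lay between the hairpins. In Jurkat NOTCH2 changed by 0.00 ± 0.13 in the pooled fit, which was not called, and in the fit of all 16 libraries it was higher with shRNA-4057 (0.16, adjusted p = 0.00069) and lower with shRNA-4058 (-0.23, adjusted p = 7.1e-06).

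Of 5 glycosyltransferases that set how NOTCH receptors respond to ligands, 3 were called in each line, beside 28.0% of all genes in Jurkat and 38.1% in HSB-2. LFNG rose in Jurkat (1.43 ± 0.17) from 1.12 CPM in scrambled to 3.03 and 2.89 CPM with the hairpins, against 1.28 CPM in wild-type, whereas MFNG fell (-0.41 ± 0.10). Scrambled was the highest MFNG group at 72.5 CPM, and wild-type (51.7 CPM) lay between shRNA-4057 (49.2 CPM) and shRNA-4058 cells (58.0 CPM). POGLUT1 rose in Jurkat (0.43 ± 0.11) and fell in HSB-2 (-0.58 ± 0.07), where POFUT1 also fell (-0.21) and RFNG rose (0.35). Of the 9 genes that cut the receptor, 8 were tested in Jurkat, where 2 were called, both lower, beside 28.0% of all genes. These were the gamma-secretase subunits PSENEN (-0.70 ± 0.10) and APH1A (-0.30 ± 0.06), and scrambled was the highest group for both. PSENEN was at 8.79 CPM in wild-type, 12.8 in scrambled and 8.09 and 7.4 with the hairpins. APH1A was at 98.6, 115, 91.4 and 92.7 CPM in the same order. In HSB-2 6 of 9 were called, 5 higher and 1 lower, beside 38.1%. FURIN, which makes the first cut of the receptor, rose by 1.82 ± 0.13 from 117 CPM in scrambled to 355 and 465 CPM with the hairpins, against 178 CPM in wild-type. PSENEN rose (0.38 ± 0.10), ADAM10 fell (-0.23 ± 0.08), and PSEN2 rose at a level under 0.5 CPM.

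Of 7 nuclear coactivators of NOTCH, 1 was called in Jurkat, beside 28.0% of all genes, where MAML1 rose (0.22 ± 0.06), and 4 were called in HSB-2, beside 38.1%. MAML2 rose there by 2.51 ± 0.22 from 0.47 CPM in scrambled to 2.35 and 2.99 CPM with the hairpins, but wild-type cells had 2.11 CPM. The acetyltransferase KAT2B had the same order of levels, with 35.2 CPM in scrambled, 50.7 CPM in wild-type and 54.8 and 56.6 CPM with the hairpins (0.67 ± 0.06 against scrambled). SNW1 rose by 0.19 and KAT2A fell by 0.23. Of 5 corepressors of RBPJ, 1 was called in Jurkat and 2 in HSB-2, beside 28.0% and 38.1% of all genes. CIR1 fell in Jurkat (-0.28 ± 0.07) and rose in HSB-2 (0.25 ± 0.06), where SPEN fell (-0.23 ± 0.06). Of 8 genes of NOTCH turnover and trafficking none was called in the edgeR fit in Jurkat, where 1 of the 8, CDK8, had an unadjusted p under 0.05, beside 28.0% of all genes called. In HSB-2 3 were, beside 38.1% of all genes: the NOTCH inhibitor NUMB rose (0.29 ± 0.06), CCNC fell (-0.30 ± 0.07), and NEURL1 rose at a level under 0.2 CPM.

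Other known NOTCH targets followed no single direction. In Jurkat 10 of 11 were tested and 4 were called, 1 higher and 3 lower, with a median of -0.22, beside 28.0% of all genes. The complement receptor gene CR2 rose (1.59 ± 0.16), from 3.75 CPM in scrambled to 9.72 and 12.4 CPM, and wild-type cells had 8.17 CPM. IL7R, which encodes the IL-7 receptor, fell (-1.30 ± 0.33), from 9.59 to 2.49 and 5.15 CPM, and wild-type cells had 7.93 CPM. The NOTCH-responsive repressor gene HEYL (-0.44 ± 0.13) and the cyclin gene CCND3 (-0.25 ± 0.06) fell as well, although CCND3 in wild-type (range 292 to 309 CPM) was below both hairpins (316 and 344 CPM) and only scrambled (398 CPM) was above them. In the fit of 16 libraries, where all 11 were tested, 10 of them were lower with shRNA-4057 than with shRNA-4058 in Jurkat, beside 33.9% of all genes called, with a median of -0.69 on the log2 scale against 0.00 over all genes. In HSB-2 5 of 11 were expressed enough to be tested, and 2 were called, beside 38.1% of all genes. These were HEYL (1.17 ± 0.31) and CCND3 (0.60 ± 0.07), both higher, where scrambled had the lowest CCND3 level (310 CPM, against 357 in wild-type and 442 and 491 CPM with the hairpins). HEYL was low, at 0.704 CPM in scrambled, 1.02 in wild-type, 1.12 with shRNA-4057 and 2.02 with shRNA-4058, so shRNA-4057 lay close to wild-type.

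The genes most like NOTCH1 and MYC in pattern were taken over the 8 group means of log2 CPM, each centered on its line, among 12557 genes. For NOTCH1 they were NTRK3 (r = 0.978), ADA (0.972), ARF4 (0.971), POLR2C (0.969) and HIRIP3 (0.969). For MYC they were WDR12 (0.979), GTF2H2 (0.979), SEC23IP (0.972), WDR3 (0.972) and PFAS (0.967). These values describe 8 group means that share libraries and scaling, and they were chosen as the highest of many.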

How the data were processed

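RNA-seq was performed on 16 libraries of Jurkat and HSB-2 cells in 8 groups of 2, taken from the labels. Ribosomal RNA was depleted and a stranded kit was used. The authors mapped reads with an in-house pipeline using BWA on GRCh37 and deposited raw read counts per gene from HTSeq (0.6.1p1 in the submitters' processing notes, which also name STAR and CASAVA). The strand setting and the annotation release are not given in the sources used here, so reads of antisense neighbors and pseudogene copies may be shared. Gene IDs were given symbols from an annotation table (96.1% matched), and GRCh37 coordinates and lengths came from GENCODE. Depth was 76.6 M to 235.5 M counts per library (M, mega).

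Counts were analysed with edgeR 4.0.16 in R 4.3.3 (filterByExpr, TMM, quasi-likelihood F-test, Benjamini-Hochberg adjustment over all genes tested). A gene was called at an adjusted p under 0.05. The SE is the absolute log2 fold change divided by the square root of F. Alternatives were DESeq2 1.42.0, its size factors, 2 other count filters, a replicate block, other controls, separate hairpins, an offset for GC content and length (loess span 0.5), and leaving out each library. CPM are TMM-normalized. FPKM are CPM per kilobase of merged exons. Chi-square per degree of freedom between replicates was 5.41 to 20.2, so none were counted as 1 sample. The fits were tested on simulated data in which 200 genes were changed 2-fold. Recovered with the right sign were 197 in Jurkat pooled, 200 in HSB-2 pooled, 200 in Jurkat shRNA-4057 and 153 in the difference between the lines. The simulation gave all genes the same dispersion and changed far fewer genes than were called in the data, so it does not measure errors under changes that wide.

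The members and gene lists were chosen with earlier results of these data known. From the lists, up to 3 called genes per list, direction and line with the largest absolute change in the pooled comparisons are named. No list was tested as a set. MYC promoter sequence is not analysed here, and no DTX1 window was used.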

Additional observations from a re-analysis of the deposited data

Results flagged for a closer look

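Dixon's criterion for an outlying library was applied to the 4 shRNA libraries of each line for each of the 10 genes. Of 20 sets, 0 passed. Each set mixes both hairpins, and where these differ the values form pairs, so that a single library can hardly pass. The result therefore cannot tell whether a library stood apart. With scrambled as the control, the shRNA effect differed between the lines in 8 of the 10 genes by the interaction test of edgeR. The effect in HSB-2 exceeded that in Jurkat by 0.78 for NOTCH1, 1.47 for NOTCH3, 0.29 for RBPJ, 4.72 for DTX1 and 3.02 for HES4 on the log2 scale. It was lower in HSB-2, with differences of -0.95 for MYC, -0.87 for HES1 and -0.88 for NRARP. DTX1, HES4 and NOTCH3 were all under 3 CPM in each HSB-2 library, so their changes in that line rest on few counts.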

How the results depend on the processing

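Over 140 member values and 2828 recomputed values, 2674 kept direction and side of the threshold, 109 lost and 32 gained a call, and 13 reversed where the value was called in either fit. Another 55 changed sign without being called in either. With wild-type in place of scrambled, the reversals were RBPJ in HSB-2 pooled (0.43), with shRNA-4057 (0.47) and with shRNA-4058 (0.40), MYC in Jurkat shRNA-4057 (-0.0466), HES4 in Jurkat shRNA-4058 (0.23) and in HSB-2 shRNA-4057 (-0.11), and HES1 in HSB-2 shRNA-4057 (0.15). With scrambled cells in the comparison of the lines, NOTCH1 (0.17) and MAX (0.043) reversed. With the GC and length offset, which was extended to the fits of 12 and 16 libraries after seeing the data, as were these wild-type values of single hairpins and that comparison of scrambled lines, NOTCH1 (-0.10) and RBPJ (0.0435) in HSB-2 shRNA-4058, RBPJ between the Jurkat hairpins (0.10) and MAX in the difference between the lines with shRNA-4058 (-0.22) reversed. The cause was not tested.

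With hairpins as separate groups, the calls against scrambled in Jurkat were 8 of the 10 genes, 24 MYC targets and 11837 of all genes, and in HSB-2 12077 of all genes. Against wild-type they were 3, 4 and 1798 in Jurkat, and 2 of the 10 genes and 5010 of all genes in HSB-2. With both controls together, 3 of the 10 were called in HSB-2. Leaving out 1 library at a time gave 0 to 5 of the 10 genes, 4 to 12 MYC targets and 1434 to 5792 of all genes in Jurkat pooled, and 3 to 5, 15 to 22 and 3801 to 8454 in HSB-2 pooled. It gave 5 to 8 of the 10 in HSB-2 shRNA-4057, in Jurkat scrambled against wild-type and in the difference between the lines, and 3713 to 6045 of all genes between the HSB-2 hairpins.

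Replicate numbers gave no consistent pairing: correlations of deviations between groups ran from -0.308 to 0.295. In Jurkat, wild-type, scrambled and shRNA-4058 correlated positively with one another (0.26 to 0.295). Each of them correlated negatively with shRNA-4057 (-0.185 to -0.308). Whether the replicate differences in Jurkat share a source was not tested. With the replicate number as a block, 4156 genes in Jurkat and 6691 in HSB-2 were called, and HES4 was lost in Jurkat pooled (-0.70), HSB-2 pooled (2.31) and HSB-2 shRNA-4057 (0.88), and RBPJ in the difference between the lines (0.29). It changed no other call of the 10 genes. With 2 libraries per group and counts under 70 for NOTCH3 in HSB-2, modest changes of that gene were not detectable.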
